A study of Mus musculus with 20 samples.

Results

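The genes described here encode the mitochondrial respiratory chain and the ATP synthase. The rule that chose them used names and no measured value, but it was set with earlier results of these data known. It took gene names that begin with Nduf followed by a, b, c, s or v and a digit, with Uqcr, Cox4 to Cox8 or Atp5, the names Sdha, Sdhb, Sdhc and Sdhd, and the mitochondrially encoded mt-Nd, mt-Co, mt-Cytb and mt-Atp genes. Names that mark a pseudogene (13 genes) were left out. The rule gave 102 of the 55487 genes in the deposited table. Of these, 89 are nuclear genes (40 of complex I, 4 of complex II, 8 of complex III, 19 of complex IV and 18 of the ATP synthase) and 13 lie on the mitochondrial genome (7, 0, 1, 3 and 2 in the same order). Complexes were assigned from the names, so Ndufa4 and Ndufa4l2 are counted with complex I although Ndufa4 is now known as a subunit of complex IV.

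The RNA came from the small intestine of mouse pups and was sequenced in bulk after polyA enrichment. There were 4 groups of 5 libraries: 7-week pups whose dams had periodontitis, 7-week control pups, 2-week pups whose dams had periodontitis and 2-week control pups. Offspring of the diseased dams are called periodontitis pups here. The study asked whether intestinal gene expression in the pups differs with periodontitis in the dam. The 2 ages allow a comparison across weaning, between separate libraries that no label links. The labels give neither sex, litter, strain nor segment of the intestine, and nothing says whether libraries of a group came from separate litters, so p-values measure only the spread between these libraries.

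The respiratory chain passes electrons from NADH (complex I) and succinate (complex II) through ubiquinone, complex III and cytochrome c to oxygen at complex IV, and complexes I, III and IV pump protons across the inner membrane. The ATP synthase uses that gradient to make ATP. Complexes I, III, IV and the ATP synthase are built from products of both genomes, complex II from nuclear genes alone, and enterocytes, which absorb and transport nutrients, are rich in mitochondria.

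Library totals ran from 14882204 to 42563229 counts. Library 5 of the 2-week control group stood apart from the others of its group: it had the lowest total, 20080 genes with a count against 23350 to 23574 in libraries 1 to 4, and 27.9% of its counts on the mt- genes. Counts of members called over all nuclear and all mt- members are therefore given with and without it, as are values of named genes where leaving it out changed the call. Counts and medians by complex are from all 20 libraries. Those in control pups are affected by library 5, and the members gained without it are named below. Epithelial markers (Epcam, Vil1, Cdh1, Krt8, Krt20, Cdx2 and Alpi) were present in every group. Their summed level was 12198 to 19949 CPM (counts relative to library size, scaled by the trimmed mean of M-values) in 7-week periodontitis pups and 16623 to 20475 CPM in 7-week control pups. The 2-week sum was 4828 to 8731 CPM in periodontitis pups and 6162 to 9974 CPM in control pups. In edgeR's test, 5 of the 7 rose with age in periodontitis pups and 6 in control pups (6 and 5 without library 5). Tissue this mixed cannot tell fewer cells of a type from less RNA per cell, and the part of epithelial content in the results on age was not tested. The 5 distal intestine markers summed to 258 to 421 CPM in 7-week periodontitis pups and 266 to 373 CPM in 7-week control pups. At 2 weeks they summed to 309 to 962 CPM in periodontitis pups and 649 to 1049 CPM in control pups. The ages overlapped in periodontitis pups and not in control pups. The part of the segment sampled in any comparison was not tested.

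Per length, the nuclear members were led in 3 of the 4 groups by Atp5g3, which encodes the c subunit of the proton-driven ring of the ATP synthase. It reached 2392 ± 296 TPM (counts relative to transcript length and library size) in 7-week periodontitis pups and 2054 ± 255 TPM in 7-week control pups, 1363 ± 149 TPM in 2-week periodontitis pups and 1664 ± 55.6 TPM in 2-week control pups (SD, n = 5 each). Cox4i1, the common form of the regulatory subunit 4 of complex IV, came next at 7 weeks with 2115 ± 129 TPM in periodontitis pups and 1905 ± 218 TPM in control pups, within 1 SD of Atp5g3. In 2-week periodontitis pups Atp5b, the catalytic beta subunit of the ATP synthase, ranked first at 1497 ± 204 TPM, and Cox4i1 and Atp5g3 lay within 1 SD of it. Over all nuclear members, the median was 697 TPM for the ATP synthase, 556 TPM for complex III, 495 TPM for complex IV, 359 TPM for complex II and 226 TPM for complex I in 7-week periodontitis pups. The order was the same in 7-week control pups, at 672, 542, 483, 366 and 207 TPM.

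With age the nuclear members rose together. They were tested in 1 fit over all 20 libraries (edgeR's quasi-likelihood test, Benjamini-Hochberg adjustment over all 17464 genes tested, threshold 0.05), and 81 of the 89 passed the filter on low counts. The 8 that did not were Ndufa11b, Ndufs6b, Cox6a2, Cox6c2, Cox7b2, Cox8b, Cox8c and a second entry named Atp5o. From 2 to 7 weeks, 75 of the 81 rose and 2 fell in periodontitis pups, and 65 rose and 2 fell in control pups. Of all genes tested, 30.4% rose and 35.7% fell in periodontitis pups, and 27.1% rose and 34.4% fell in control pups. The median log2 fold change of the nuclear members, 7 over 2 weeks, was 1.36 in periodontitis pups against -0.11 for all genes tested, and 0.99 in control pups against -0.13. The 2 that fell in both were Ndufa4l2 and Cox4i2.

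Without library 5 of the 2-week controls, 76 of the 81 rose and 2 fell in periodontitis pups, beside 35.4% and 40% of 17748 genes, and the member gained was Ndufb11. In control pups 73 rose and 2 fell, with a median of 1.09, beside 32.6% and 37.3% of all genes. All 67 members called there with the library were among the 75 called without it. The 8 gained were Ndufa4, Ndufc1, Ndufc2, Ndufv3, Uqcrb, Cox6c, Atp5md and Atp5mpl.

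These directions are relative to the bulk of the genes, because trimmed-mean scaling holds the median gene near 0. With total counts alone the median of all genes moved to -0.88 in periodontitis pups and -0.79 in control pups. On that scale 47 of the nuclear members rose and 4 fell in periodontitis pups, beside 11.5% and 59.8% of all genes. In control pups 35 rose and 5 fell, beside 9.46% and 56.8%. The median of the nuclear members stood 1.44 (total counts) and 1.47 (trimmed mean) above that of all genes in periodontitis pups, and 1.12 and 1.12 above it in control pups. Of the 75 members that rose with trimmed-mean scaling in periodontitis pups, 7 had a negative value on total counts (Ndufa10, Ndufs1, Ndufs8, Ndufv3, Uqcrc2, Atp5b and Atp5c1). Of the 65 in control pups, 5 did (Ndufa9, Ndufb11, Sdha, Cox7a2l and Atp5c1), and none of these 12 values passed the test. Without library 5, 58 of the 76 that rose in periodontitis pups also rose on total counts, beside 14.7% of all genes. There 8 had negative values, of which 2 passed the test as falls. Of the 73 in control pups, 46 also rose, beside 10.9% of all genes. There 14 had negative values, of which 3 passed as falls. On that scale 65.9% of all genes fell in both groups of pups.

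**Figure D1:**
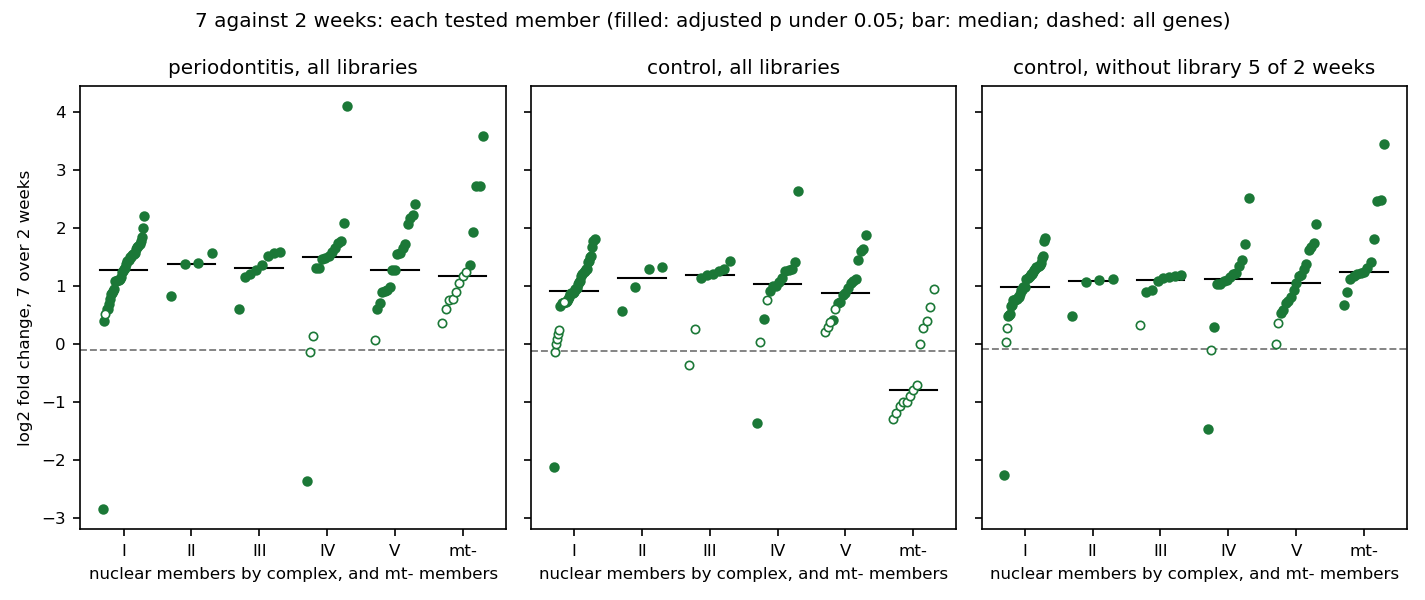
Log2 fold change of every tested member from 2 to 7 weeks (vertical axis), by complex for nuclear members and together for the mt- members (horizontal axis), in periodontitis pups, in control pups and in control pups without library 5 of the 2-week group. Filled points passed an adjusted p of 0.05, bars mark the median of each set and the dashed line that of all genes tested; 9 of the 13 mt- points lie below 0 in the middle panel and all 13 above 0 in the right panel.

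The share of all counts on the 89 nuclear genes needs no trimmed-mean scaling. It was 2.18 ± 0.115% in 7-week periodontitis pups and 2.04 ± 0.199% in 7-week control pups, 1.56 ± 0.167% in 2-week periodontitis pups and 1.71 ± 0.221% in 2-week control pups (SD, n = 5 each). Library 5 of the 2-week controls had 1.33%, and libraries 1 to 4 had 1.80 ± 0.0741% (SD, n = 4). The lowest 7-week library had 1.86% and the highest 2-week library 1.90%, so the ages overlapped in control pups. In periodontitis pups they did not, with 2.04 to 2.32% at 7 weeks and 1.37 to 1.78% at 2 weeks.

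**Figure D2:**
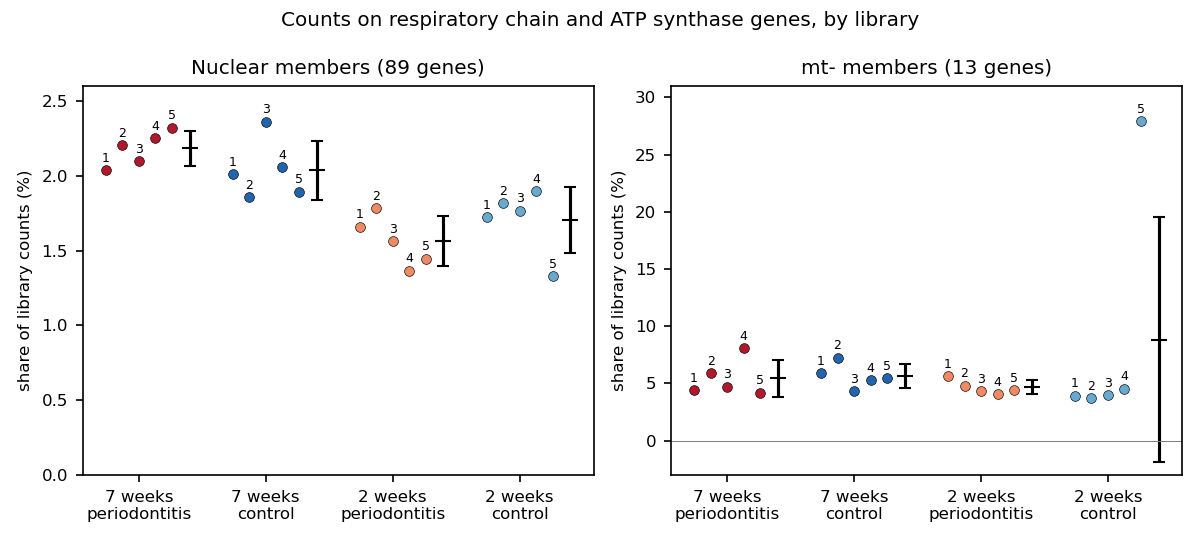
Share of each library's counts (vertical axis, percent) on the 89 nuclear members (left) and the 13 mt- members (right), with 1 numbered point per library in 4 groups and the mean ± SD beside them. Nuclear shares of 2.04 to 2.32% in 7-week periodontitis pups lie above those of 1.37 to 1.78% in 2-week periodontitis pups, and library 5 of the 2-week controls carries 27.9% of its counts on mt- genes, where the SD bar of its group crosses 0.

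Complex I accounted for 38 of the tested nuclear members, of which 36 rose and 1 fell in periodontitis pups (median 1.27) and 31 rose and 1 fell in control pups (median 0.92). Ndufa1 (ENSMUSG00000016427, chromosome X, 37187588 to 37191163 of GRCm38, minus strand), a small accessory subunit of the membrane arm, had the largest rise in both. Its level was 96.8, 130.4, 143, 129 and 72.3 CPM in 7-week periodontitis pups and 107, 108, 91.6, 105 and 108 CPM in 7-week control pups. At 2 weeks it was 26.7, 28.7, 24.5, 18.6 and 25.1 CPM in periodontitis pups and 27.6, 29.0, 27.8, 32.0 and 30.9 CPM in control pups. Every 7-week library was above every 2-week library. The log2 fold change was 2.21 ± 0.16 in periodontitis pups and 1.82 ± 0.16 in control pups (edgeR, adjusted p = 3.8e-09 and 5.2e-08; ± is the SE).

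Ndufb8, an accessory subunit at the far end of the membrane arm, rose by 1.78 ± 0.24 in periodontitis pups and 1.68 ± 0.24 in control pups on the log2 scale (edgeR, adjusted p = 3.6e-06 and 1.0e-05). It had 318, 399, 336, 441 and 197 CPM in 7-week periodontitis pups and 316, 359, 249.5, 366 and 308 CPM in 7-week control pups, against 112, 115, 96.9, 81.1 and 88.7 CPM in 2-week periodontitis pups and 111, 114, 113, 116 and 43.7 CPM in 2-week control pups. The ages did not overlap, and library 5 was the lowest of the 2-week controls. Ndufa5, an accessory subunit of the matrix arm, rose by 1.85 ± 0.26 in periodontitis pups (edgeR, adjusted p = 5.5e-06). Ndufb4 rose by 2.00 ± 0.25 there (adjusted p = 1.4e-06) and its near copy Ndufb4c by 1.77 ± 0.31 in control pups (adjusted p = 8.1e-05). All 31-base words of Ndufb4c are also in Ndufb4, so the division of reads between these genes is uncertain. Ndufs1, the large iron-sulfur subunit of the matrix arm, rose by 0.40 ± 0.16 in periodontitis pups (edgeR, adjusted p = 0.038) and had -0.15 ± 0.16 in control pups with library 5 and 0.04 ± 0.12 without it (adjusted p = 0.45 and 0.78).

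Ndufa4l2, a low-abundance relative of Ndufa4 known as a hypoxia-responsive gene, went the other way. It had 0.432, 0.256, 0.658, 0.374 and 1.13 CPM in 7-week periodontitis pups and 0.862, 0.539, 1.21, 0.506 and 0.282 CPM in 7-week control pups. Its 2-week values were 3.76, 3.32, 4.46, 4.93 and 4.96 CPM in periodontitis pups and 3.16, 3.59, 3.39, 3.13 and 1.69 CPM in control pups. All 7-week libraries were below all 2-week libraries, and the log2 fold change was -2.85 ± 0.37 in periodontitis pups and -2.12 ± 0.36 in control pups (edgeR, adjusted p = 2.4e-06 and 6.3e-05). Ndufa4 rose by 1.56 ± 0.32 in periodontitis pups (adjusted p = 0.00033). In control pups its value was 0.72 ± 0.32 (edgeR, adjusted p = 0.055) with library 5, which held 566 CPM against 139, 149, 164 and 173 CPM in libraries 1 to 4. Without that library Ndufa4 rose by 1.33 ± 0.19 (adjusted p = 7.4e-06).

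All 4 genes of complex II rose with age in both groups of pups. Sdhb, the iron-sulfur subunit, had 472, 474, 393, 377 and 384 CPM in 7-week periodontitis pups and 436, 424, 482, 451 and 433 CPM in 7-week control pups. Its 2-week values were 189, 194, 156, 129 and 141 CPM in periodontitis pups and 209.9, 204, 204, 202 and 86.5 CPM in control pups, below every 7-week value. The log2 fold changes were 1.38 ± 0.19 and 1.30 ± 0.19 for Sdhb (edgeR, adjusted p = 6.0e-06 in periodontitis and 1.7e-05 in control pups). For the membrane anchors they were 1.39 ± 0.13 in periodontitis and 0.99 ± 0.13 in control pups for Sdhc, and 1.57 ± 0.26 and 1.32 ± 0.26 for Sdhd. Sdha, the flavoprotein that oxidises succinate, changed least, by 0.82 ± 0.15 in periodontitis pups and 0.56 ± 0.15 in control pups (edgeR, adjusted p = 0.00012 and 0.0038). Whether the change of Sdha differs from that of the other subunits was not tested.

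Of the 8 genes of complex III, 8 rose in periodontitis pups (median 1.32) and 6 in control pups (median 1.20). Uqcrfs1, the Rieske iron-sulfur protein, had 563, 604, 541, 586 and 531 CPM in 7-week periodontitis pups and 488, 538, 576, 586 and 557 CPM in 7-week control pups. The 2-week libraries had 225, 249, 176, 138 and 156 CPM in periodontitis pups and 249, 244, 238, 259 and 123 CPM in control pups. The ages did not overlap, and the log2 fold changes were 1.58 ± 0.19 in periodontitis pups and 1.30 ± 0.19 in control pups (edgeR, adjusted p = 8.6e-07 and 1.1e-05). The small subunits Uqcr11, Uqcrq and Uqcrh rose by 1.57 ± 0.39, 1.28 ± 0.16 and 1.52 ± 0.17 in periodontitis pups, in that order, and by 1.42 ± 0.38, 1.25 ± 0.16 and 1.19 ± 0.17 in control pups. The 2 not called in control pups were Uqcrc2, a core subunit with 0.25 ± 0.15 (edgeR, adjusted p = 0.16), and Uqcrb, which binds ubiquinone. Library 5 held 810.0 CPM of Uqcrb against 92.8, 97.6, 89.1 and 115 CPM in libraries 1 to 4 of the 2-week controls. With that library Uqcrb had -0.36 ± 0.46 and without it 0.93 ± 0.13 (edgeR, adjusted p = 0.52 and 5.6e-06).

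Complex IV has tissue-specific isoforms of several subunits, and 14 of its 19 nuclear members passed the filter. In each group of pups, 11 rose and 1 fell, with a median of 1.51 in periodontitis pups and 1.04 in control pups. Cox7a1 (ENSMUSG00000074218, chromosome 7, 30184144 to 30186078, plus strand), the isoform of subunit 7a known from heart and skeletal muscle, had the largest change of any nuclear member. Its level was 95.0, 126, 126, 113 and 48.7 CPM in 7-week periodontitis pups and 74.3, 93.6, 77.7, 89.1 and 89.4 CPM in 7-week control pups. Its 2-week level was 9.12, 11.5, 4.12, 1.94 and 2.88 CPM in periodontitis pups and 11.4, 14.2, 13.2, 20.5 and 8.21 CPM in control pups. No 2-week library came near the lowest 7-week value of 48.7 CPM, and the log2 fold changes were 4.11 ± 0.42 in periodontitis pups and 2.64 ± 0.39 in control pups (edgeR, adjusted p = 1.5e-07 and 1.6e-05).

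Cox7a2, the isoform found in most tissues, had 266, 317, 299, 321 and 192 CPM in 7-week periodontitis pups and 252, 268, 244, 284 and 248 CPM in 7-week control pups. At 2 weeks it had 103, 106, 89.6, 65.6 and 75.8 CPM in periodontitis pups and 98.4, 99.8, 99.6, 111 and 126 CPM in control pups. It rose by 1.66 ± 0.16 in periodontitis pups and 1.28 ± 0.16 in control pups on the log2 scale (edgeR, adjusted p = 6.1e-08 and 2.0e-06). Per length, Cox7a1 stood at 280.2 ± 64.4 TPM beside 518 ± 32.5 TPM for Cox7a2 in 7-week periodontitis pups, and at 237 ± 11.2 beside 485 ± 29.9 TPM in 7-week control pups. In 2-week periodontitis pups it was 30.3 ± 20.4 TPM beside 306 ± 44.1 TPM, and in 2-week control pups 65.4 ± 30.8 TPM beside 323 ± 68.3 TPM. The summed level of 8 skeletal muscle markers was 18.5 to 65.7 CPM in 7-week periodontitis pups, 21.9 to 53.2 CPM in 7-week control pups, 7.65 to 24.9 CPM in 2-week periodontitis pups and 7.49 to 19.3 CPM in 2-week control pups. Myh4, a myosin of fast muscle, was listed at 0 in every library. Of the 6 skeletal muscle markers tested, 2 rose and 2 fell in each group of pups. The 8 smooth muscle markers summed to 478 to 1397 CPM in 7-week periodontitis pups and 549 to 1189.5 CPM in 7-week control pups, and to 1072 to 3624 CPM in 2-week periodontitis pups and 1745 to 2326 CPM in 2-week control pups, and 6 of them fell with age in each. Cox7a1 is also known from brown fat. The 4 brown fat markers (Ucp1, Cidea, Elovl3 and Cpt1b) summed to 4.22 to 9.11 CPM in 7-week periodontitis pups and 3.84 to 8.39 CPM in 7-week control pups, against 1.23 to 3.05 CPM in 2-week periodontitis pups and 1.85 to 3.87 CPM in 2-week control pups. Ucp1, the defining marker, was at 0 in every 7-week library and reached at most 0.0455 CPM at 2 weeks, and of the 2 markers tested Cpt1b rose and Cidea fell in each group of pups. The part of muscle cells in the level of Cox7a1 was not tested.

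The 250 bases before the start of Cox7a1 and of Cox7a2 are shown because these isoforms differ in level and both rose with age. They are RefSeq promoters of GRCm38.p6, the first at chr7:30183921-30184170 on the plus strand and the second at chr9:79759854-79760103 on the minus strand. Capitals mark a match to the GGGCGG box bound by SP1, searched on both strands.
Cox7a1: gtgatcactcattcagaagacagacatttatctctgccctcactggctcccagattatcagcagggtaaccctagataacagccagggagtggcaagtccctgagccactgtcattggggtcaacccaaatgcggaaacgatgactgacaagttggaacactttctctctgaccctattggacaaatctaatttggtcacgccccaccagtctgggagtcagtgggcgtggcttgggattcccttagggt
Cox7a2: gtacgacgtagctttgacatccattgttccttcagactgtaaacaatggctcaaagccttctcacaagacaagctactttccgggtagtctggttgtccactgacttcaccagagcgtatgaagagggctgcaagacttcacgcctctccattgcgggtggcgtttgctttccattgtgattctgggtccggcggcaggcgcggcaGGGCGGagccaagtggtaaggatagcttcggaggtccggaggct
The window of Cox7a2 holds 1 such match, and that of Cox7a1 holds none of the 5 motifs searched.

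Cox4i2, the isoform of subunit 4 known from lung and from low oxygen, fell. It had 0.315, 0.256, 0.312, 0.561 and 0.607 CPM in 7-week periodontitis pups and 0.630, 0.441, 0.853, 0.234 and 0.483 CPM in 7-week control pups. Its 2-week values were 2.28, 1.75, 2.37, 1.93 and 2.32 CPM in periodontitis pups and 1.45, 1.68, 1.39, 1.43 and 0.885 CPM in control pups. All 7-week libraries were lower than all 2-week libraries, and the log2 fold changes were -2.36 ± 0.31 in periodontitis pups and -1.37 ± 0.30 in control pups (edgeR, adjusted p = 2.4e-06 and 0.00060). Its counterpart Cox4i1 rose to 941 to 1556 CPM in 7-week periodontitis pups, against 402 to 547 CPM in 2-week periodontitis pups. In control pups it rose to 1046 to 1314 CPM at 7 weeks, against 294 to 536 CPM at 2 weeks. The log2 fold changes of Cox4i1 were 1.47 ± 0.18 and 1.29 ± 0.18 (edgeR, adjusted p = 8.9e-07 in periodontitis and 6.3e-06 in control pups).

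The 7 pericyte markers, genes of the cells that wrap small vessels, moved the same way as Cox4i2 and Ndufa4l2. They summed to 116 to 319 CPM in 7-week periodontitis pups and 133 to 266 CPM in 7-week control pups. At 2 weeks they summed to 197 to 342 CPM in periodontitis pups and 239.8 to 399 CPM in control pups. The ages overlapped in both, unlike those of the 2 genes. Library 5 set the 399 CPM, and libraries 1 to 4 of the 2-week controls lay at 239.8 to 270 CPM. Of the 6 tested, 5 fell in each group of pups, beside 35.7% of all genes in periodontitis and 34.4% in control pups. The part of pericytes in the levels of Cox4i2 and Ndufa4l2 was not tested.

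Of the other tissue forms of complex IV subunits, Cox6b2 passed the filter on low counts and the rest did not. Cox6a1, the liver-type subunit 6a, rose by 1.78 ± 0.16 in periodontitis pups and 1.42 ± 0.15 in control pups (edgeR, adjusted p = 2.5e-08 and 5.4e-07), while Cox6a2, the muscle type, stayed at 0.0387 to 0.402 CPM over all libraries and was not tested. Cox8a rose by 1.31 ± 0.12 and 1.08 ± 0.12 (edgeR, adjusted p = 5.4e-08 in periodontitis and 8.6e-07 in control pups). The muscle form Cox8b had at most 0.256 CPM, and the testis form Cox8c had no count in any library. Cox7b rose by 1.60 ± 0.20 in periodontitis pups and 0.99 ± 0.20 in control pups, and Cox7b2 had a count in 1 library. Cox6b1 rose by 1.49 ± 0.15 in periodontitis pups and 1.14 ± 0.15 in control pups. Its testis form Cox6b2 lay at 1.45 to 8.59 CPM in 7-week periodontitis pups, 2.13 to 4.17 CPM in 7-week control pups, 4.01 to 7.24 CPM in 2-week periodontitis pups and 1.93 to 4.12 CPM in 2-week control pups. The ages overlapped for Cox6b2, with -0.14 ± 0.32 in periodontitis pups and 0.03 ± 0.33 in control pups (-0.10 ± 0.33 without library 5). Cox7a2l, which links complexes III and IV into a supercomplex, had 0.14 ± 0.14 in periodontitis pups (edgeR, adjusted p = 0.41). In control pups it rose by 0.42 ± 0.14 (adjusted p = 0.014), with a negative value on total counts. Cox6c rose by 2.09 ± 0.45 in periodontitis pups (edgeR, adjusted p = 0.00049). In control pups it had 0.76 ± 0.44 with library 5 and 1.72 ± 0.26 without it (adjusted p = 0.14 and 1.7e-05).

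**Figure D3:**
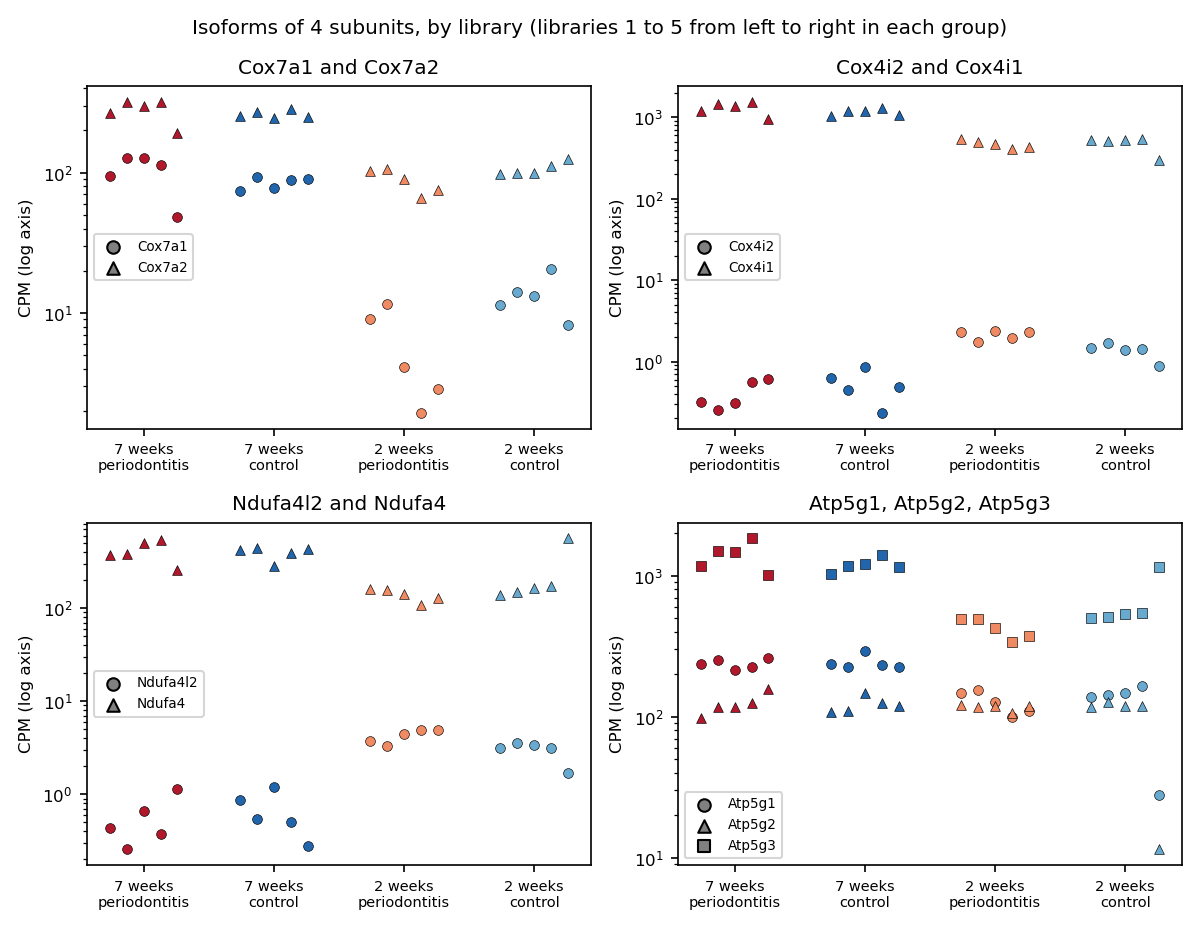
Level of isoforms in each library (vertical axis, CPM on a log scale; libraries 1 to 5 from left to right within each of 4 groups). Cox7a1 lies at 48.7 to 126 CPM in all 7-week libraries and at 1.94 to 20.5 CPM in all 2-week libraries, while Cox4i2 and Ndufa4l2 lie lower at 7 weeks, and Atp5g2 lies at 98.1 to 157 CPM in all libraries but library 5 of the 2-week controls, at 11.4 CPM.

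The ATP synthase had 17 tested members, of which 16 rose in periodontitis pups (median 1.27) and 13 in control pups (median 0.89), and none fell. Atp5e (ENSMUSG00000016252, chromosome 2, 174461072 to 174464105, minus strand), the epsilon subunit of the central stalk, had 254, 423, 389, 471 and 179 CPM in 7-week periodontitis pups and 243, 300.3, 239, 335 and 233 CPM in 7-week control pups. The 2-week libraries had 83.2, 81.5, 78.1, 55.5 and 69.4 CPM in periodontitis pups and 76.6, 84.4, 82.8, 95.4 and 27.1 CPM in control pups. The ages were clear of each other, with log2 fold changes of 2.22 ± 0.29 in periodontitis pups and 1.88 ± 0.28 in control pups (edgeR, adjusted p = 2.3e-06 and 1.9e-05). Atp5l and Atp5k, small membrane subunits at the face where ATP synthases pair, rose by 2.17 ± 0.24 and 2.08 ± 0.19 in periodontitis pups and by 1.64 ± 0.24 and 1.61 ± 0.18 in control pups. A processed copy of Atp5l held 9.16% as many counts as the gene itself and has all of its 31-base words in it, so reads may be divided between them.

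Atp5md, another small membrane subunit, had the largest rise of the ATP synthase in periodontitis pups. It had 423, 579, 493, 556 and 166 CPM in 7-week periodontitis pups against 99.1, 96.3, 84.6, 59.1 and 75.2 CPM in 2-week periodontitis pups, a log2 fold change of 2.42 ± 0.58 (edgeR, adjusted p = 0.0011). In control pups it had 492, 444, 237, 452 and 419.8 CPM at 7 weeks against 86.9, 96.7, 88.1, 117 and 963 CPM at 2 weeks. The last of these values, library 5, was above every other library of the series, and the log2 fold change was 0.60 ± 0.55 with it and 2.07 ± 0.29 without it (edgeR, adjusted p = 0.35 and 6.6e-06).

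The 3 genes Atp5g1, Atp5g2 and Atp5g3 encode the same mature c subunit behind different import sequences, and their values with age were not alike. Atp5g3 rose by 1.72 ± 0.23 in periodontitis pups and 0.89 ± 0.22 in control pups (edgeR, adjusted p = 2.9e-06 and 0.0020). Atp5g1 rose by 0.90 ± 0.29 and 0.96 ± 0.29 (adjusted p = 0.0100 in periodontitis and 0.0070 in control pups), with a negative value in control pups on total counts without library 5. Atp5g2 had 98.1, 117, 118, 125 and 157 CPM in 7-week periodontitis pups and 107, 109, 146, 125 and 119 CPM in 7-week control pups. At 2 weeks it had 120.2, 117, 119.8, 107 and 119 CPM in periodontitis pups and 118, 127, 119, 119.6 and 11.4 CPM in control pups. The ages overlapped, apart from the low value of library 5, and the log2 fold change was 0.07 ± 0.35 in periodontitis pups and 0.29 ± 0.35 in control pups (edgeR, adjusted p = 0.86 and 0.49). Without library 5 it was 0.00 ± 0.11 in control pups. No test of the difference between the 3 genes was run. Atp5b, the catalytic subunit, rose by 0.61 ± 0.19 in periodontitis pups (edgeR, adjusted p = 0.0085) and had 0.39 ± 0.19 in control pups (adjusted p = 0.082).

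Promoters were compared because most nuclear members moved together. Of the 250 bases before the start, RefSeq gave 73 promoters for 68 nuclear members. The NRF1 motif was in 14 of the 73 (19.2%) and in 3.74% of all 32851 promoters. The ETS motif of NRF2, CCGGAAG, was in 12 (16.4%) against 6.91% of all. The ERR motif AAGGTCA was in 5 (6.85%) against 4.08%, the SP1 box GGGCGG in 25 (34.2%) against 32.7%, and the YY1 motif AAGATGG in 1 (1.37%) against 4.49%. Both strands were searched, no motif contains another, and 58.9% of the member promoters and 43.1% of all promoters held at least 1 of the 5 motifs. A match is a description of letters and not a binding site. The promoter of Atp5e, at chr2:174464102-174464351 on the minus strand, is shown as one that holds an NRF2 motif read on the other strand and 2 SP1 boxes, in capitals.
Atp5e: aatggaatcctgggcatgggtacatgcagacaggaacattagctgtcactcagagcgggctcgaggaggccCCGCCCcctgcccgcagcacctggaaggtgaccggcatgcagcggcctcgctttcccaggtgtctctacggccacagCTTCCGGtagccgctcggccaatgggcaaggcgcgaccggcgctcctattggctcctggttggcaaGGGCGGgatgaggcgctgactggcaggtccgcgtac

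The 13 mt- genes took 5.47 ± 1.61% of counts in 7-week periodontitis pups, 5.66 ± 1.07% in 7-week control pups and 4.66 ± 0.615% in 2-week periodontitis pups (SD, n = 5 each). In 2-week control pups libraries 1 to 4 gave 4.04 ± 0.354% (SD, n = 4) and library 5 gave 27.9%. With age, 5 of the 13 rose in periodontitis pups, beside 30.4% of all genes, and the median of the 13 was 1.17. The 5 were mt-Nd3 and mt-Nd6 of complex I, mt-Co2 and mt-Co3 of complex IV and mt-Atp6, the proton channel subunit of the ATP synthase. In control pups edgeR called none of the 13 (0 at an unadjusted p under 0.05, and 0 called by DESeq2), with a median of -0.79. Of all genes there, 27.1% rose and 34.4% fell in edgeR. Without library 5, 12 of the 13 rose in periodontitis pups, where mt-Nd5 had 0.35 ± 0.22 (edgeR, adjusted p = 0.15), beside 35.4% of all genes. All 13 rose in control pups, with a median of 1.23, beside 32.6% of all genes.

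mt-Co1, the catalytic core of complex IV, was the most abundant member per length in every group by the counts placed on the mt- genes. Nuclear copies, described below, take most of the joint count of some other mt- genes, such as mt-Co3. The ranking with copies added was not made. It had 24626, 30243, 21965, 37414 and 17773 CPM in 7-week periodontitis pups and 31392, 42912, 22172, 24547 and 30391 CPM in 7-week control pups. Its 2-week values were 20013, 15641, 14325, 13217 and 14653 CPM in periodontitis pups and 14874, 12858, 13318, 14839 and 68886 CPM in control pups. The last library alone lay above the 7-week range, and library 1 of the 2-week periodontitis pups reached into that range. The log2 fold change in control pups was 0.28 ± 0.39 with library 5 and 1.11 ± 0.23 without it (edgeR, adjusted p = 0.55 and 0.00029). In periodontitis pups it was 0.76 ± 0.40 (adjusted p = 0.096 with all libraries and 0.0032 without library 5).

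mt-Nd3 (ENSMUSG00000064360, mitochondrial genome, 9459 to 9806, plus strand), a small core subunit of the membrane arm of complex I, had the largest rise of the mt- members in periodontitis pups and, without library 5, in control pups. Its level was 164, 398, 364, 674 and 77.0 CPM in 7-week periodontitis pups and 294, 381, 85.8, 361 and 341 CPM in 7-week control pups. At 2 weeks it was 28.7, 34.3, 24.0, 21.2 and 31.6 CPM in periodontitis pups and 20.5, 24.0, 27.2, 35.5 and 839.6 CPM in control pups. Libraries at 7 weeks were above those at 2 weeks except for library 5 of the controls. The log2 fold change was 3.58 ± 0.93 in periodontitis pups (edgeR, adjusted p = 0.0022), and in control pups 0.63 ± 0.84 with library 5 and 3.45 ± 0.51 without it (adjusted p = 0.53 and 1.4e-05).

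mt-Atp6 followed the same order. It had 2816, 5186, 4163, 7928 and 1607 CPM in 7-week periodontitis pups and 3040.3, 4785, 1943, 4706 and 3593 CPM in 7-week control pups, against 895, 748, 574, 495 and 565 CPM in 2-week periodontitis pups and 509, 590.0, 669, 820.1 and 28585 CPM in 2-week control pups. Without library 5 the log2 fold change in control pups was 2.48 ± 0.37 (edgeR, adjusted p = 1.5e-05), and with it -0.79 ± 0.86. For the rest of the mt- genes the values in control pups without library 5 ran from 0.67 ± 0.24 for mt-Nd5 to 2.47 ± 0.42 for mt-Co3. mt-Nd2, a core subunit of complex I, had 1.23 ± 0.27 without the library and -1.29 ± 0.74 with it. mt-Cytb, the only mitochondrially encoded subunit of complex III, had 1.32 ± 0.24 and -0.01 ± 0.50. With it mt-Nd5 had -0.71 ± 0.52 and mt-Co3 0.95 ± 0.62, and no value of the 4 genes passed the test. With total counts and no library 5, 5 of the 13 rose in periodontitis pups beside 14.7% of all genes, mt-Nd5 fell, and mt-Nd1, mt-Nd4 and mt-Co1 had negative values. In control pups 7 rose beside 10.9%, and mt-Nd5 had a negative value.

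**Figure D4:**
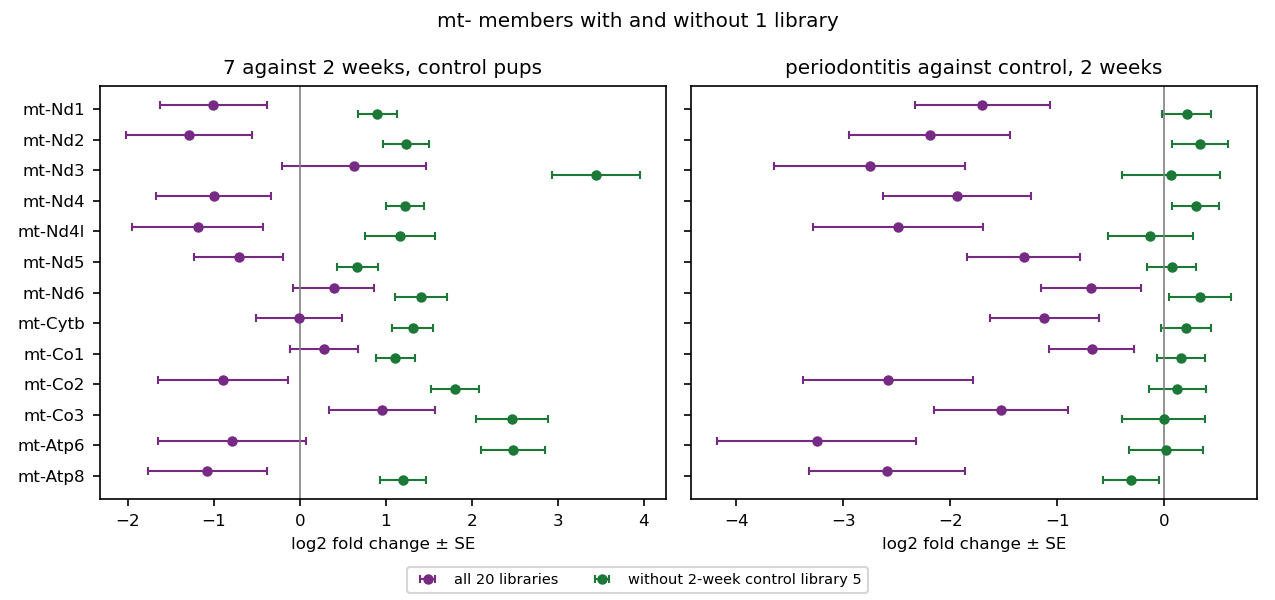
Log2 fold change ± SE (horizontal axis) of each of the 13 mt- genes from 2 to 7 weeks in control pups (left) and in periodontitis against control pups at 2 weeks (right), with all 20 libraries and without library 5 of the 2-week controls. Without that library all 13 lie above 0 on the left, from 0.67 for mt-Nd5 to 3.45 for mt-Nd3, and on the right the values lie between -0.32 and 0.33.

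Counts of several mt- genes are divided with a nuclear copy. A stretch of chromosome 1 (GRCm38) between 24612407 and 24615565 on the minus strand holds annotated copies of mt-Nd4l, mt-Nd3, mt-Co3, mt-Atp6 and mt-Co2. Over their aligned length the copies of mt-Nd4l, mt-Co3, mt-Atp6 and mt-Co2 (Gm10222, Gm28437, Gm10925 and Gm28661) had 0 differences from the mitochondrial gene. Gm28438 differs from mt-Nd3 at 1 of 345 bases, T3C, counted from the first base of mt-Nd3 (the mitochondrial gene has the first letter and the copy the last). The first 33 bases of both are shown with the differing base in capitals, mt-Nd3 at chrM:9459-9491 on the plus strand and the copy at chr1:24613087-24613119 on the minus strand.
mt-Nd3: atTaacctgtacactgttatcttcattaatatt
Gm28438: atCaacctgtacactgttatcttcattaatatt
Most copies held more counts than the genes: 934% as many for mt-Nd4l, 903% for mt-Nd3, 260.3% for mt-Atp6, 229.6% for mt-Co2 and 187% for mt-Co3, over all libraries. The copies of mt-Co1 and mt-Nd4 held fewer, 3.40% and 1.41% as many.

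The share of the joint count that the table places on the mitochondrial gene also differed with age. Without library 5 of the 2-week controls it was higher on average at 7 weeks for mt-Nd3, mt-Nd4l, mt-Atp6, mt-Co2 and mt-Co3. For mt-Co1 it was lower at 7 weeks, at 94.1 ± 4.16% in periodontitis and 96.7 ± 2.39% in control pups. At 2 weeks mt-Co1 had 98.3 ± 0.842% in periodontitis pups and 99.3 ± 0.307% in control libraries 1 to 4. The means of mt-Nd4 ran from 97.6 to 98.8%. For mt-Atp6 it was 31.6 ± 3.83% in 7-week periodontitis pups and 27.2 ± 4.20% in 7-week control pups, 16.9 ± 0.457% in 2-week periodontitis pups and 17.4 ± 2.70% in libraries 1 to 4 of the 2-week controls (SD, n = 5, 5, 5 and 4). Library 5 had 42.1%. For mt-Nd3 it was 10.5 ± 1.29%, 8.88 ± 1.03%, 6.60 ± 1.16% and 6.91 ± 0.730% in the same groups and order, and 36.5% in library 5. With the counts of the copies added to their genes and library 5 left out, 12 mt- genes rose in periodontitis pups and all 13 in control pups, beside 35.4% and 32.7% of all genes, as many members as with the copies apart. The values of mt-Nd3, mt-Nd4l, mt-Atp6, mt-Co2 and mt-Co3 are uncertain for this reason. Those of mt-Co1 and mt-Nd4 are also affected, with a smaller share of the joint count on the copy. The part of the copies in the size of each change was not tested.

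Reads that overlap 2 mt- genes add to this. mt-Nd5 ends at 13565 on the plus strand and mt-Nd6 spans 13552 to 14070 on the minus strand, so they share bases. Whether counting used strand is not known, so reads there may be divided between them. mt-Atp6 and mt-Co3 share base 8607. The last 43 bases of mt-Atp8, a short membrane subunit of the ATP synthase, are also the first of mt-Atp6 (M:7927-7969), and the last 7 bases of mt-Nd4l are also the first of mt-Nd4 (M:10167-10173). The ends of mt-Atp8 and mt-Nd4l are shown with the shared bases in capitals, at M:7907-7969 and M:10147-10173 of GRCm38, plus strand.
mt-Atp8: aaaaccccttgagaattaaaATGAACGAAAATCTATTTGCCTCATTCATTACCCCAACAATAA
mt-Nd4l: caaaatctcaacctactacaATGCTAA

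Library 5 of the 2-week controls departed from libraries 1 to 4 by base composition, among the members as over all genes. Its deviation in log2 CPM from their mean correlated with the GC content of the transcript at r = -0.537 over the 81 nuclear members and -0.644 over 17441 genes, in 1 library and with shared composition among genes. In the 15 libraries of the other groups, each set against the rest of its own group, r over the nuclear members lay between -0.354 and 0.335. Libraries 1 to 4 of the 2-week controls, whose comparison includes library 5, had r of 0.482 to 0.542. The median deviation was 1.18 for the 8 nuclear members with 40 to 45% GC, 0.0586 for the 18 with 45 to 50%, -0.188 for the 32 with 50 to 55% and -0.833 for the 23 above that. Atp5md (44.2% GC) deviated by 3.32 and Uqcrb (42.2%) by 3.04, and Uqcr11 (58.9%) by -3.68 and Atp5g2 (56.7%) by -3.39. The mt- genes, with 31.9 to 41.1% GC, deviated by 2.30 to 5.49. Whether composition accounts for these deviations was not tested.

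**Figure D5:**
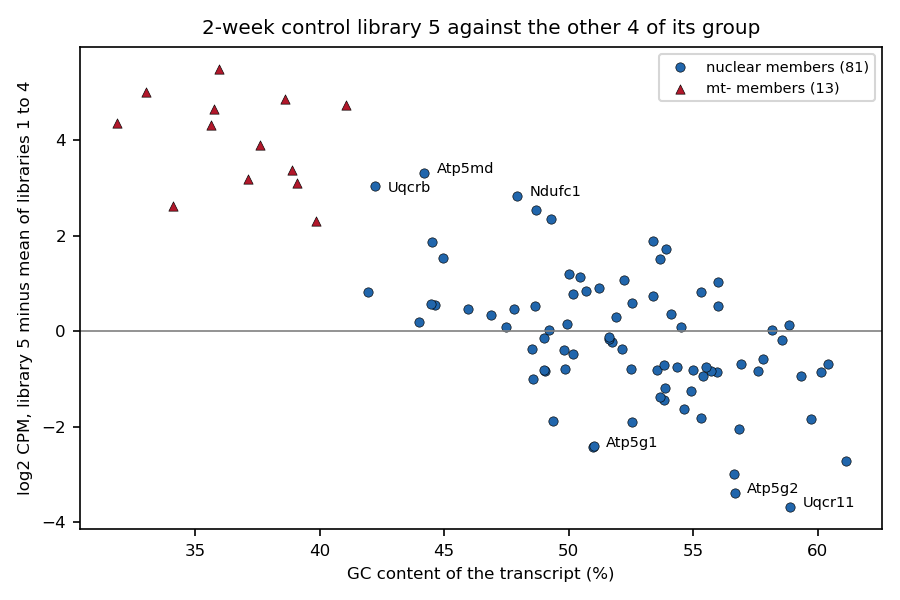
Deviation of library 5 of the 2-week controls from the mean of libraries 1 to 4 (vertical axis, log2 CPM) against transcript GC content (horizontal axis, percent), for the 81 tested nuclear members and the 13 mt- members. Members below 45% GC lie above 0, up to 5.49 for an mt- gene, and Uqcr11 and Atp5g2 lie at -3.68 and -3.39.

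At 2 weeks no member differed between periodontitis and control pups in edgeR's test, where 0.0286% of all genes passed. At an unadjusted p under 0.05, 2 of the 81 nuclear members were higher and 23 lower in periodontitis pups, and 11 of the 13 mt- members lower, beside 14.4% of all genes in either direction. DESeq2 called 1 nuclear member (Cox7a1) and 3 mt- members (mt-Nd3, mt-Atp6 and mt-Atp8) lower, beside 3.43% of all genes. The median log2 fold change, periodontitis over control, was -0.19 for the nuclear members and -1.94 for the mt- members, against 0.02 for all genes. Without library 5 edgeR again called no member, beside 0.276% of all genes. The median was then -0.19 for the nuclear and 0.12 for the mt- members. At an unadjusted p under 0.05, 11 of the 81 nuclear members were lower and 0 higher, and 0 mt- members were either, beside 12.2% of all genes. DESeq2 without library 5 called Cox7a1 alone, beside 2.97% of all genes.

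Cox7a1 had the smallest adjusted p of the nuclear members without that library and the second smallest with it. The levels given above, 1.94 to 11.5 CPM in 2-week periodontitis pups and 8.21 to 20.5 CPM in 2-week control pups, overlap. The log2 fold change was -1.20 ± 0.38 with all libraries and -1.33 ± 0.39 without library 5 (edgeR, adjusted p = 0.15 and 0.12). It was -1.59 without library 2 of the 2-week periodontitis pups (edgeR, adjusted p = 0.028), the only such fit in which any member passed. Calls over all genes grew in that fit, to 172 higher and 215 lower of 17733 tested. With all libraries they were 3 and 2 of 17464. DESeq2 gave -1.21 (adjusted p = 0.045). Summed markers of suckling and weaned enterocytes also lay apart in these groups, although edgeR called none of the 12 with all libraries and 1 (Fcgrt, higher in periodontitis pups) without library 5. The 7 suckling markers summed to 1976 to 5462 CPM in periodontitis pups and 844 to 1985 CPM in control pups, and the 5 weaned markers to 529.7 to 2165 CPM in periodontitis pups and 2363 to 4972 CPM in control pups. The suckling sums overlapped at the edge and the weaned sums did not. Library 5 set the 844 and the 4972 CPM, and libraries 1 to 4 of the controls lay at 1053 to 1985 CPM for the suckling and 2363 to 3251 CPM for the weaned markers. Their part in the values of Cox7a1 and of the other nuclear members at 2 weeks was not tested.

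Ndufc1 had the smallest adjusted p with all libraries. This small subunit of the membrane arm of complex I had 29.2, 28.1, 25.6, 18.3 and 21.5 CPM in periodontitis pups and 28.3, 29.5, 29.3, 35.4 and 218 CPM in control pups. Library 5 was the highest of the controls, and the log2 fold change was -1.46 ± 0.44 with it and -0.32 ± 0.13 without it (edgeR, adjusted p = 0.13 and 0.27). For Ndufc2, Uqcrb, Atp5md and Atp5mpl the values were -1.05 ± 0.36, -1.46 ± 0.47, -1.70 ± 0.56 and -0.73 ± 0.26 with the library, in that order, and -0.19 ± 0.12, -0.18 ± 0.12, -0.23 ± 0.27 and -0.19 ± 0.10 without it. Sdha and Sdhc of complex II had -0.24 ± 0.15 and -0.26 ± 0.13 with all libraries, and Sdha had 384, 413, 311, 263 and 290.0 CPM in periodontitis pups against 421, 394, 398, 440.2 and 315 CPM in control pups, which overlap.

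At 7 weeks no member passed either, beside 0.0115% of all genes in edgeR and 0.143% in DESeq2, and no member reached an unadjusted p under 0.05 where 3.33% of all genes did. The median was 0.09 for the nuclear members and -0.06 for the mt- members, against 0.02 for all genes. Without library 5 of the 2-week controls, again no member passed or reached an unadjusted p under 0.05, beside 0.0113% and 6.02% of all genes in edgeR, and DESeq2 called none, beside 0.237%. These medians moved with single 7-week libraries. Without library 5 of the 7-week periodontitis pups, whose scaling factor was 0.986 against 0.724 to 0.753 in the rest of its group, the nuclear median was 0.16 and the mt- median 0.11. The nuclear median was 0.04 without library 2 and 0.05 without library 4 of that group. The mt- median ran from -0.26 without library 4 of that group up to the value without its library 5. It was also above 0 without library 1 of that group (0.0029) and without library 2 of the 7-week controls (0.06), so its sign depended on the library left out. Atp5e, among the members with the smallest p, had 179 to 471 CPM in periodontitis pups and 233 to 335 CPM in control pups at 7 weeks, so the control libraries lay inside the range of the periodontitis libraries, and the log2 fold change was 0.34 ± 0.28. Ndufa5, Uqcrh and Cox7c had 0.37 ± 0.25, 0.24 ± 0.17 and 0.21 ± 0.16, Sdhd had 0.19 ± 0.26, Ndufa2 0.25 ± 0.17 and Uqcr10 0.04 ± 0.15.

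The difference between the dam effects at 7 and at 2 weeks was tested directly, as the value at 7 weeks minus that at 2 weeks. No member passed in edgeR (0.0229% of all genes did) or in DESeq2 (0.372%), and without library 5 none did beside 0.0507%. At an unadjusted p under 0.05, 18 nuclear members had a positive difference and 1 a negative one, and 6 mt- members a positive one, beside 8.8% of all genes in either direction. Without library 5 these counts were 12, 1 and 0, beside 9% of all genes, and DESeq2 called no member there, beside 0.687%. Cox7a1 had 1.46 ± 0.53 with all libraries and 1.59 ± 0.53 without library 5 (edgeR, adjusted p = 0.50 and 0.33), and Atp5g3 had 0.83 ± 0.31 and 0.53 ± 0.22. Ndufb3 had 0.93 ± 0.37 and 0.47 ± 0.20.

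Genes that build or supply the chain were counted beside the subunits, with no test of any list as a whole. The shares of all genes given above, 30.4% higher and 35.7% lower in periodontitis pups and 27.1% and 34.4% in control pups, apply to each count, and 35.4%, 40%, 32.6% and 37.3% in the same order without library 5 of the 2-week controls. Subunits missed by the naming rule also rose: Ndufab1, the acyl carrier protein of complex I, rose by 1.01 ± 0.18 in periodontitis pups and 0.48 ± 0.18 in control pups, and Cyc1, cytochrome c1 of complex III, by 1.24 ± 0.36 and 1.14 ± 0.36. Ndufab1 had a negative value in control pups on total counts. Of 22 assembly factors of complex IV, 15 rose and 0 fell in periodontitis pups, and 14 rose and 1 fell in control pups. Without library 5, 19 rose and 0 fell in periodontitis pups and 16 rose and 1 fell in control pups. Sco1, a copper chaperone, had 56.5, 48.4, 50.7, 44.5 and 40.6 CPM in 7-week periodontitis pups and 42.0, 53.2, 48.3, 45.2 and 49.4 CPM in 7-week control pups, against 16.2, 16.9, 12.2, 10.5 and 11.1 CPM in 2-week periodontitis pups and 17.7, 19.5, 16.8, 21.1 and 20.2 CPM in 2-week control pups. The ages did not overlap, and it rose by 1.84 ± 0.15 in periodontitis pups and 1.32 ± 0.14 in control pups (edgeR, adjusted p = 7.4e-09 and 5.4e-07). Among the others, Higd1a rose by 1.79 ± 0.17 in periodontitis pups and Higd2a by 0.96 ± 0.13 in control pups, and the one that fell in control pups, the membrane insertase Cox18, had -0.56 ± 0.20.

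Of 15 assembly factors of complex I, 4 rose and 3 fell in periodontitis pups and 5 rose and 1 fell in control pups, and without library 5, 7 rose and 3 fell and 6 rose and 3 fell. Timmdc1, which helps to build the membrane arm, rose by 1.80 ± 0.20 and 1.73 ± 0.20, and Nubpl, which delivers iron-sulfur clusters, fell by 0.83 ± 0.20 and 0.57 ± 0.20 on the log2 scale in periodontitis and control pups. Ndufaf5 rose by 0.81 ± 0.18 and Tmem186 fell with -0.75 ± 0.22 in periodontitis pups, and Tmem126b rose by 0.54 ± 0.11 in control pups, with a negative value on total counts. For complex II, 3 of 4 factors rose in each, Sdhaf4 by 0.85 ± 0.16 and 0.83 ± 0.16 and Sdhaf3 by 1.07 ± 0.21 and 0.93 ± 0.21 in periodontitis and control pups. For complex III, 2 rose and 1 fell of 6 in periodontitis pups, and 4 rose and 1 fell in control pups. Without library 5, 4 rose and 1 fell in periodontitis pups and 3 rose and 1 fell in control pups. Uqcc2 rose by 0.84 ± 0.18 in periodontitis pups and 0.95 ± 0.19 in control pups (just below 0 there on total counts without library 5), Ttc19 by 1.08 ± 0.22 in periodontitis pups and Uqcc3 by 0.51 ± 0.15 in control pups, the last with a negative value on total counts. The one that fell was Bcs1l, which inserts the Rieske protein, with -0.78 ± 0.33 in periodontitis pups and -0.81 ± 0.33 in control pups (edgeR, adjusted p = 0.046 and 0.042). Of 4 genes for assembly and inhibition of the ATP synthase, 2 rose and 0 fell in periodontitis pups and 1 rose and 0 fell in control pups. Without library 5, 2 rose and 1 fell (Atpaf2) in each. The assembly factor Atpaf1 rose by 0.59 ± 0.12 in periodontitis pups and 0.42 ± 0.12 in control pups, with negative values on total counts, and the inhibitor Atpif1 rose by 1.33 ± 0.37 in periodontitis pups. Of 14 genes for ubiquinone and cytochrome c, 8 rose in periodontitis pups and 5 in control pups, none fell, with and without library 5, and Coq4 rose by 1.55 ± 0.14 and 1.64 ± 0.14 and Coq10b by 1.87 ± 0.26 and 1.47 ± 0.26 in periodontitis and control pups.

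Of 25 genes that keep or read the mitochondrial genome, 5 rose and 6 fell in periodontitis pups and 1 rose and 8 fell in control pups. Without library 5, 6 rose and 9 fell in periodontitis pups and 5 rose and 11 fell in control pups. Fastkd3, an RNA-binding protein of mitochondria, fell to 2.20 to 6.71 CPM in 7-week periodontitis pups against 6.42 to 8.03 CPM at 2 weeks, and to 2.65 to 4.59 CPM in 7-week control pups against 7.59 to 9.26 CPM at 2 weeks. The ages overlapped in periodontitis pups and not in control pups. Its log2 fold change was -1.03 ± 0.24 in periodontitis pups and -1.23 ± 0.24 in control pups (edgeR, adjusted p = 0.00080 and 0.00022). Polg2, the accessory subunit of the mitochondrial DNA polymerase, rose by 1.03 ± 0.20 in periodontitis pups and 0.96 ± 0.21 in control pups. In periodontitis pups Mterf2 rose by 1.28 ± 0.23 and the nuclease Mgme1 had -1.01 ± 0.25, and in control pups Pnpt1, an RNA-degrading enzyme, had -0.95 ± 0.22, falls that passed the test.

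Of 9 regulators of respiratory genes, 6 rose and 1 fell in periodontitis pups and 3 rose and 1 fell in control pups, where 5 rose and 1 fell without library 5. Ppargc1b, a coactivator of mitochondrial genes, had 20.6, 31.9, 24.7, 36.6 and 26.9 CPM in 7-week periodontitis pups and 17.6, 24.7, 21.5, 28.2 and 18.5 CPM in 7-week control pups, against 9.78, 9.35, 7.18, 7.40 and 6.24 CPM in 2-week periodontitis pups and 9.03, 10.6, 9.41, 9.55 and 10.5 CPM in 2-week control pups. The ages did not overlap, and its log2 fold changes were 1.81 ± 0.18 and 1.17 ± 0.17 (edgeR, adjusted p = 7.5e-08 in periodontitis and 1.5e-05 in control pups). Ppargc1a rose by 2.11 ± 0.37 in periodontitis pups (edgeR, adjusted p = 5.3e-05) and had 0.41 ± 0.35 in control pups with library 5 and 0.94 ± 0.28 without it (adjusted p = 0.32 and 0.0062). Esrra, the nuclear receptor ERR alpha, rose by 1.33 ± 0.43 in periodontitis pups and 1.53 ± 0.43 in control pups. Pprc1, related to Ppargc1a, fell by 1.90 ± 0.40 and 1.85 ± 0.40. Of 18 genes of the citric acid cycle and pyruvate dehydrogenase, 11 rose and 2 fell in periodontitis pups and 10 rose and 2 fell in control pups (11 and 3 without library 5). Mdh2, the mitochondrial malate dehydrogenase, rose by 2.13 ± 0.26 in periodontitis pups and 1.68 ± 0.25 in control pups, and Ogdh, of the oxoglutarate dehydrogenase, by 1.29 ± 0.16 and 1.02 ± 0.16. Idh2, the NADP-linked isocitrate dehydrogenase, and Suclg2, the GTP-linked subunit of succinyl-CoA ligase, were the ones that fell, Idh2 with -1.53 ± 0.36 and -1.57 ± 0.36 and Suclg2 with -0.48 ± 0.17 and -0.97 ± 0.17. Over the 119 tested genes of all these lists, edgeR called 0 between periodontitis and control pups at 2 weeks, 0 at 7 weeks and 0 in the difference. At an unadjusted p under 0.05, 25 were lower and 0 higher in periodontitis pups at 2 weeks, 1 was lower at 7 weeks, and 19 had a positive and 1 a negative difference, beside 14.4%, 3.33% and 8.8% of all genes. DESeq2 called 6 of them at 2 weeks (Gabpa, Pdss1, Ndufaf4, Ppargc1a, Mterf2 and Sco1), beside 3.43% of all genes, and 0 in the other comparisons. Without library 5 edgeR again called 0 in each. At an unadjusted p under 0.05, 21 were then lower and 1 higher at 2 weeks, 2 lower and 1 higher at 7 weeks, and 15 had a positive and 3 a negative difference, beside 12.2%, 6.02% and 9% of all genes. DESeq2 then called Sco1 alone at 2 weeks and 0 in the other comparisons.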

How the data were processed

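Bulk RNA from the small intestine of 20 mouse pups was prepared with a total RNA kit and a polyA-enrichment library kit, per the labels' protocols. The deposited table holds expected counts per gene made by the authors. The submitters' processing notes name cutadapt 4.8, FastQC 0.11.8, STAR 2.7.8a and RSEM 1.3.3 and the builds GRCm38 and GRCh38, and whether counting used strand is not given in the sources used here. All deposited expected counts were whole numbers, so none needed rounding. Expected counts divide reads among near-identical genes by estimate, which bears on the mt- genes with nuclear copies and on Ndufb4. Because of polyA enrichment, mt- levels also depend on the tailing of those transcripts.

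Counts were fitted with edgeR 4.0.16 (R 4.3.3) using filterByExpr, trimmed-mean scaling and robust quasi-likelihood over 20 libraries and 4 group means, with 17464 genes tested. Standard errors were worked back from the F statistic. CPM are scaled by the trimmed mean, and TPM use GENCODE M21 exon lengths, to which 55227 gene IDs matched. DESeq2 1.42.0, total-count scaling, no filter, a replicate block, copies added, and leaving out each library were tried. The members, gene lists and markers were chosen with earlier results of these data known. Genes were named by a rule: every mt- gene; the isoform pairs; per complex and comparison, among members with a mean log2 CPM of at least 1, up to 3 rises and 3 falls past the threshold with the largest change, or the 2 with the smallest p where none passed; and in each other list up to 2 rises and 2 falls by smallest p. Ndufs1, Atp5b and Cox7a2l were singled out after their values were seen. The alternatives with total-count scaling, with copies added, without a pair of libraries (library 5 of the 2-week controls and of the 7-week periodontitis pups), and the total-count, copies-added and DESeq2 fits without library 5 of the 2-week controls were chosen after seeing the data. Library totals of 14882204 to 42563229 counts limit precision for the lowest members.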

Additional observations from a re-analysis of the deposited data

Results flagged for a closer look

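Within groups of 5, a library was picked out where its gap to the nearest other library exceeded 0.71 of the group's range (Dixon's 95% critical value). Of 120 groups examined, 26 were picked out, 23 of them in the 2-week controls. Chance flags about 1 in 20 groups, and groups share libraries.

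In the 2-week controls library 5 was the highest for the share of counts on mt- genes, with a gap ratio of 0.965, and for that share with the nuclear copies added (0.969). The ratio was 0.98 for mt-Nd1, 0.985 for mt-Nd2, 0.982 for mt-Nd3, 0.976 for mt-Nd4, 0.922 for mt-Nd4l, 0.98 for mt-Nd5 and 0.942 for mt-Nd6. It was 0.955 for mt-Cytb, 0.964 for mt-Co1, 0.983 for mt-Co2, 0.968 for mt-Co3, 0.989 for mt-Atp6 and 0.984 for mt-Atp8.

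Of the single nuclear members, only the tested genes of the isoform pairs were examined. Others, such as Uqcrb, Atp5md and Ndufc1, were not among the groups. In the 2-week controls the highest library stood apart for Cox6b1 (0.739), where it was library 4. Library 5 was the highest and stood apart for Cox7b (0.846), Ndufa4 (0.921) and Atp5g3 (0.939). It was the lowest and stood apart for Cox4i1 (0.886), Ndufa4l2 (0.756), Atp5g1 (0.793) and Atp5g2 (0.919). In the other groups the highest 7-week control library stood apart for Cox8a (0.755) and Atp5g1 (0.827), and the lowest 2-week periodontitis library for Atp5g2 (0.754).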

How the results depend on the processing

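Over all results and alternatives, 7840 values kept direction and side of the threshold, 86 lost the call, 75 gained it and 56 changed sign. DESeq2 called 1 nuclear and 3 mt- members between dam groups at 2 weeks, and 1 and 0 without library 5 of the 2-week controls. With total counts alone the nuclear calls with age were 51 in periodontitis pups and 40 in control pups, and the mt- calls 3 in each (higher in periodontitis, lower in control pups). On that scale Atpaf1 had -0.18 in periodontitis and -0.25 in control pups, and in control pups Ndufab1 had -0.13, Tmem126b -0.11 and Uqcc3 -0.19. Adding copies gave 2 mt- calls with age in control pups, fitting only the compared groups gave 11 in periodontitis pups, and leaving out library 5 of both the 2-week controls and the 7-week periodontitis pups gave 12 in periodontitis and 13 in control pups. Leaving out each library gave 75 to 78 nuclear calls with age in periodontitis pups and 66 to 75 in control pups, 3 to 12 and 0 to 13 mt- calls, 0 to 1 nuclear calls between dam groups at 2 weeks and 0 to 0 for the other dam comparisons. Of the mt- genes with age in control pups, 9 changed sign without library 5 of the 2-week controls, the highest value in each range over the fits that leave out a library: -1.08 to 2.48 for mt-Atp6, -1.34 to 1.20 for mt-Atp8, -1.17 to 1.81 for mt-Co2, -0.22 to 1.32 for mt-Cytb, -1.25 to 0.90 for mt-Nd1, -1.56 to 1.23 for mt-Nd2, -1.27 to 1.23 for mt-Nd4, -1.49 to 1.17 for mt-Nd4l and -0.92 to 0.67 for mt-Nd5. In the same order, leaving out that pair of libraries gave 2.46, 1.18, 1.78, 1.29, 0.88, 1.21, 1.20, 1.14 and 0.65. In the same order, without library 5 of the 2-week controls alone, DESeq2 gave 2.50, 1.22, 1.83, 1.34, 0.92, 1.25, 1.25, 1.19 and 0.69, and with copies added edgeR gave 1.82, 1.20, 1.41, 1.32, 0.91, 1.24, 1.22, 0.98 and 0.67. Both gave 12 mt- calls with age in periodontitis pups and 13 in control pups. With total counts and without that library there were 7 mt- calls in control pups, and mt-Atp6 had 1.68, mt-Co2 1.01, mt-Cytb 0.53 and mt-Nd4 0.44. In that fit the values of genes that changed sign were -0.45 for mt-Nd5, -0.69 for Atp5g2 and -0.18 for Atpaf1 in periodontitis pups, and in control pups -0.061 for Atp5g1, -0.77 for Atp5g2, -0.37 for Atpaf1, -0.89 for Cox6b2, -0.10 for Ndufab1, -0.19 for Tmem126b, -0.00016 for Uqcc2 and -0.37 for Uqcc3. Apart from those that leave libraries out, the cause of these changes was not tested.

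Correlation gave no sign that the replicate numbers pair the samples, though it cannot settle whether they do. Of 30 same-numbered pairs of libraries from 2 groups, 4 had r above 0.1. In 5 of the 30 the first library correlated best with its own number in the other group. With the replicate block there were 76 nuclear calls with age in periodontitis pups and 68 in control pups, 5 mt- calls in periodontitis pups and 0 calls between dam groups. With it the median of the mt- members was -0.98 between dam groups at 2 weeks and 0.37 with age in control pups. Depth limits the low members, such as Cox6a2 and Cox8b, most.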
